A study of Mus musculus with 25 samples.

Results

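Hematopoietic stem cells carrying the JAK2 mutation V617F and no Il1b were compared with wild-type stem cells 2 weeks after the start of tamoxifen. The 8 libraries of these groups, 4 a side, were chosen by the genotype and replicate number in their labels, out of 25 libraries in the study. Cells sorted as Lin-Sca1+cKit+CD48-CD150+ came from the marrow of mice that had been engrafted with donor marrow, and tamoxifen was begun 16 weeks later. The donors of the study had 4 genotypes: WT, the JAK2 mutant VF, and VF lacking either Il1b (VF;IL-1b-/-) or the receptor gene (VF;IL-1R1-/-). The wild-type group was labelled SclCre;GFP and is called WT here. The mutant group was labelled SclCre;V617F;IL-1b-/-GFP and is called VF;IL-1b-/- here. Both groups therefore carry, by their labels, a tamoxifen-inducible Cre driven from Scl, another name of Tal1, and a GFP reporter, and both received tamoxifen. The mutant group differs from WT in both JAK2 and Il1b at once, so neither change can be told apart from the other in this comparison alone. For that reason the VF libraries of 2 weeks (SclCre;V617F;GFP, 4 libraries) are set beside it where a value turns on Il1b. Both groups belong to the same processing batch, that of 2 weeks, per the labels' protocols. The labels number the libraries of a group but do not tie each one to a donor or recipient, so p-values measure the spread between these libraries, which may be partly technical.

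JAK2 is the kinase that carries signals from the receptors of erythropoietin and related cytokines to STAT transcription factors. The V617F change in its pseudokinase domain makes the kinase active without the cytokine and is the most frequent driver of myeloproliferative neoplasms, diseases that begin in hematopoietic stem cells. Interleukin-1 beta, the product of Il1b, is an inflammatory cytokine made mainly by myeloid cells. It binds the receptor encoded by Il1r1 and activates NF-kB through the adaptor Myd88 and the Irak kinases, and it drives stem cells towards division and myeloid output.

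Reads on the construct sequences matched the JAK2 labels of all 8 libraries. In CPM, counts scaled to library size, the first part of the human JAK2 coding sequence had 0.255, 0.0346, 0.0729 and 0.733 in WT replicates 1 to 4, and 98.4, 125, 115 and 112 in VF;IL-1b-/-. The second part had a mean of 0.0898 ± 0.0753 (SD, n = 4) in WT and 63.9 ± 6.97 (n = 4) in the mutant group. CreERT2, the Cre sequence, had 529, 568, 532 and 527 CPM in VF;IL-1b-/-, and in WT it had a single read, in replicate 3, although the WT label names the same Cre. Each of these 3 sequences gave the smallest p that 4 against 4 libraries allow (exact permutation of the mean log2(CPM + 1), two-sided, p = 0.0286, adjusted over 4 sequences 0.0381). The presence of the Cre sequence therefore cannot be told apart from the genotype in any difference from WT described here.

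Reads of pEGFP split the WT libraries. They came to 998 and 518 CPM in WT replicates 1 and 2 and to 3.03 and 49.3 in replicates 3 and 4, against 450 to 498 in the mutant group, which lay within the WT range (exact permutation p = 0.429, adjusted 0.429). Against WT, Il1b could not check its own deletion. It had 0 reads in the mutant libraries and in 3 WT libraries, and 4 reads, 0.139 CPM, in WT replicate 2, so its level was at or near the limit of detection in WT as well. VF had 0, 0.936, 0.156 and 0.271 CPM of Il1b, and VF;IL-1R1-/- had 0.561, 0, 0.666 and 1.02. The differences of VF;IL-1b-/- from these groups had an unadjusted p of 0.011 and 0.00586 by the edgeR quasi-likelihood test. Neither passed after adjustment. Il1r1, the receptor gene, had 20, 17.3, 6.09 and 16.5 CPM in WT and 11.1, 12, 19.2 and 22.3 in VF;IL-1b-/-. The ranges overlapped, and the difference was 0.11 on the log2 scale (SE 0.60, adjusted p = 1, edgeR quasi-likelihood test).

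Library totals were 26722287 to 28799494 counts in WT and 26398242 to 29835071 in VF;IL-1b-/-, and 13238 to 13433 genes were detected per library. Correlations of log2 CPM were 0.934 to 0.946 within WT, 0.943 to 0.955 within VF;IL-1b-/- and 0.932 to 0.957 between the groups, so these correlations did not separate the groups. The first principal component, the axis of largest spread over the 8 libraries, held 18.9% of the variance. On it WT lay at -33.1, -24.3, -50.7 and 7.0 and VF;IL-1b-/- at 28.8, 4.2, 43.3 and 24.9. The groups leaned apart there but overlapped through WT replicate 4. Genes that mark long-term stem cells were abundant in all 8 libraries, with Procr at 77.7 to 189 CPM, Slamf1, which encodes the sorted CD150, at 75.5 to 152 and Mecom at 286 to 422. Cd48, against which the cells were sorted, was at 0.62 to 5.33 CPM. Of the markers of other cells, Mcpt8, C1qa, Adgre1, Cd79a, Cd3e, Cd3d, Cdh5 and Cxcl12 were below the level at which genes were tested or not listed, Hbb-bs stood at 14.7 to 41.8 CPM, and S100a8 was at 0.0733 to 1.65. Mpo ranged from 0 to 28 CPM in WT and from 0.857 to 74.6 in the mutant group. In these bulk samples fewer cells of a type and less RNA per cell cannot be told apart.

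Few genes differed between the groups at 2 weeks. Of 13630 genes tested, 6 passed an adjusted p of 0.05 (0.044%) by edgeR's quasi-likelihood test with Benjamini-Hochberg adjustment. Echdc2, Scp2 and Tal1 rose (0.022%), and Klhl9, Dock2 and Mid1 fell (0.022%). At an unadjusted p under 0.05 there were 187 higher genes (1.37%) and 235 lower genes (1.72%), 422 in all (3.1%), against 682 if p were uniform. Every mutant library lay above every WT library for 227 genes (1.67%) and below for 310 (2.27%). The fit shares its spread over 7 groups of genotype and time. Fitted on the 8 compared libraries alone it gave 833 genes at an unadjusted p under 0.05 and 5 calls, 4 of them shared, with Dock2 and Mid1 lost and Ccdc171 gained.

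**Figure D1:**
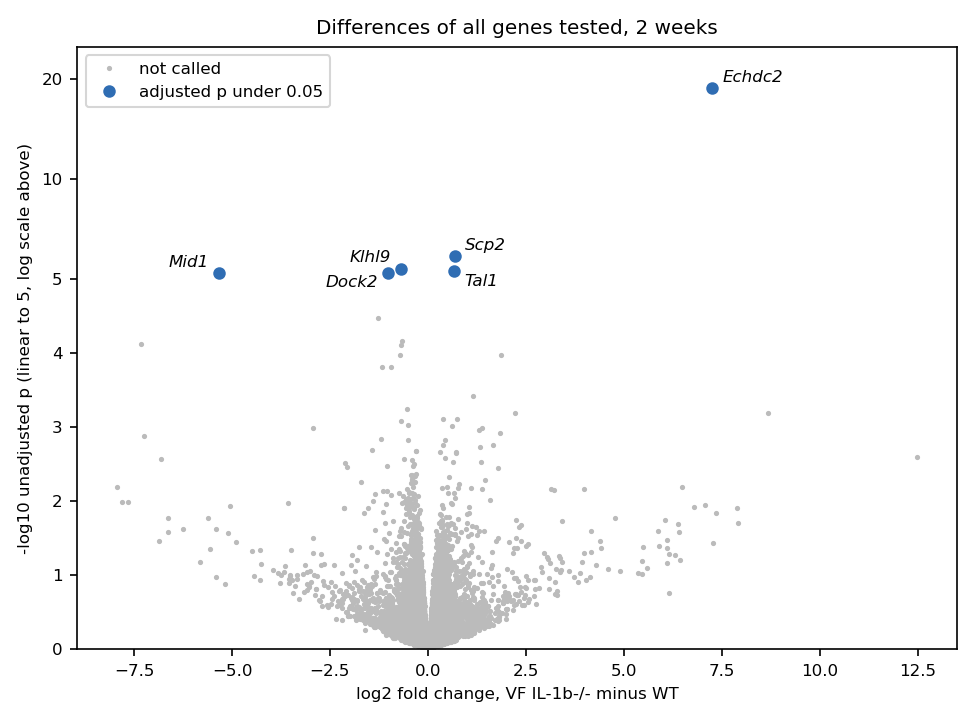
Log2 fold change of each gene tested (VF;IL-1b-/- minus WT, 4 libraries each, horizontal axis) against the minus log10 of its unadjusted p (vertical axis, linear to 5 and logarithmic above). The 6 genes with adjusted p under 0.05 are named; Echdc2 stands far from the rest at a log2 fold change of 7.26.

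Echdc2, which encodes a mitochondrial protein of the enoyl-CoA hydratase family, showed the only difference that was called under each of the 20 alternative fits. It is annotated at chr4:108165437-108179308 on the plus strand of mm10. Its level was 4.29, 4.81, 2.62 and 5.79 CPM in WT and 570, 731, 709 and 671 in VF;IL-1b-/-. The groups lay far apart, and the fitted difference was 7.26 on the log2 scale (SE 0.25, adjusted p = 2.18e-15), or 153-fold. In VF the level was 445, 392, 321 and 370 CPM, so the gene was also high in mutant libraries that keep Il1b. All 4 mutant libraries without Il1b lay above all 4 VF libraries, but that difference of 0.81 (SE 0.19) did not pass the test (unadjusted p = 2.45e-04, adjusted p = 0.333). CreERT2 was likewise lower in VF, at 243 to 318 CPM, than in VF;IL-1b-/-, whose values are given above. In VF;IL-1R1-/- CreERT2 stood at 452.5, 594.6, 320.7 and 454.5 CPM and Echdc2 at 731.2, 656.6, 662.8 and 716.8. There the library highest in CreERT2 was the lowest in Echdc2. The part of CreERT2 in the Echdc2 level was not tested.

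Scp2, which encodes sterol carrier protein and a peroxisomal thiolase that acts in branched-chain fatty acid and bile acid metabolism, lies beside Echdc2 on the opposite strand, with 20438 bases between the annotated genes. It had 190, 186, 196 and 221 CPM in WT and 285, 338, 316 and 342 in VF;IL-1b-/-. No libraries overlapped, and Scp2 rose by 0.69 (SE 0.11, adjusted p = 0.00902). In VF it stood between them at 275, 264, 239 and 257 CPM, and the mutant groups with and without Il1b did not differ by a called amount (0.31, SE 0.11, adjusted p = 1). Without WT replicate 2 or without mutant replicate 2 the adjusted p for the rise over WT was 0.0512 and 0.0636. With WT replicates 3 and 4 alone as the controls Scp2 was not called either. The highest adjusted p over the 20 alternative fits was 0.43.

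Tal1 encodes the transcription factor Scl, which is needed to form hematopoietic stem cells and later for the erythroid and megakaryocytic lines, and the regulatory sequence of this gene gives the Cre of these mice its name. Its level was 62.5, 59.4, 62.9 and 57.3 CPM in WT and 102, 101, 96.4 and 86.1 in VF;IL-1b-/-. The ranges did not meet, and Tal1 rose by 0.67 (SE 0.11, adjusted p = 0.0137). VF again lay between, at 74.9, 88.2, 74.3 and 78.4 CPM, and the step from VF to VF;IL-1b-/- was 0.29 (SE 0.11, adjusted p = 1). The call for Tal1 was close to the threshold: leaving out any WT library, or mutant replicate 1, 2 or 3, kept the difference at 0.64 to 0.69 but moved the adjusted p to between 0.0511 and 0.0961. Tal1 was also not called with WT replicates 1 and 2 alone or with 3 and 4 alone. Over the 20 alternative fits its adjusted p reached 0.43.

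Klhl9, which encodes a substrate adaptor of cullin ubiquitin ligases, fell from 130, 130, 140 and 128 CPM in WT to 85.5, 81.3, 78 and 85.3 in VF;IL-1b-/-. The libraries of each group were close together, and the difference was -0.67 (SE 0.11, adjusted p = 0.0137). In VF Klhl9 was at 88.2, 121, 86.9 and 90.8 CPM, with the mutant group without Il1b lower by a difference that was not called (-0.23, SE 0.11, adjusted p = 1). Leaving out WT replicate 2 or 3, or mutant replicate 1, 2 or 3, gave adjusted p of 0.0512 to 0.114. Klhl9 was also not called with WT replicates 1 and 2 alone, with 3 and 4 alone or with the replicate number as a block. Over the 20 alternative fits its adjusted p reached 0.308. Echdc2, Scp2, Tal1 and Klhl9 all lie on chromosome 4, which holds 847 of the genes tested (6.21%).

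**Figure D2:**
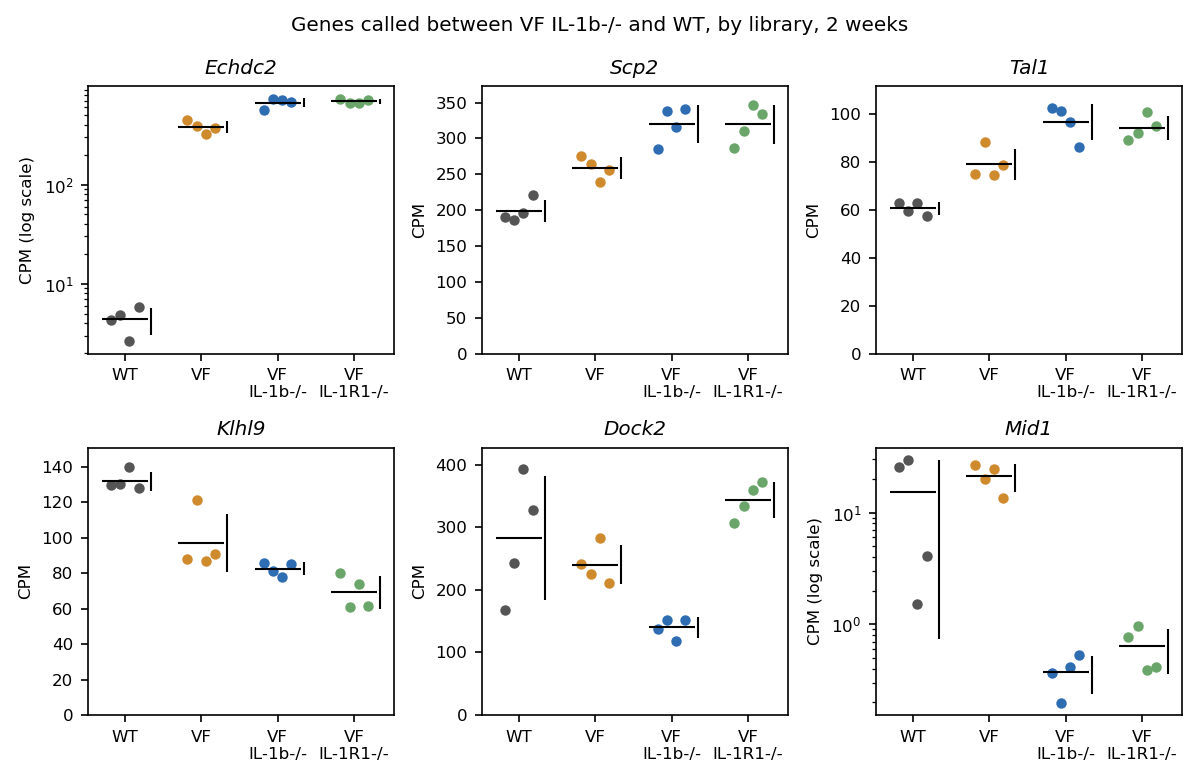
CPM of the 6 called genes in each library of 2 weeks (4 genotypes, 4 libraries each; points are libraries, horizontal lines means and vertical lines the SD; Echdc2 and Mid1 on a log scale). Echdc2, Scp2 and Tal1 rise and Klhl9 falls from WT through VF to VF;IL-1b-/- in the means, while WT is spread widely for Dock2 and Mid1.

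Of the chromosome 4 calls only Echdc2 and Scp2 lay side by side. Counted between gene midpoints, Scp2 lies 0.08 Mb before Echdc2, Tal1 6.89 Mb after it and Klhl9 19.45 Mb before it. Of the other 51 genes tested within 5 Mb of Echdc2, 1 was called, and 7.84% had an unadjusted p under 0.05, against 3.1% of all genes. Of the other 130 genes tested within 10 Mb of Echdc2, 2 were called, both higher, and the median log2 difference of the 130 was 0.04. Over the whole chromosome the median was 0.01, with 16 genes higher and 19 lower at an unadjusted p under 0.05 (4.13% of its genes, against 3.1% of all genes). Runx3, a transcription factor of blood cells 26.98 Mb after Echdc2, had 3.49, 13.5, 8.93 and 12.2 CPM in WT and 27.2, 26.4, 42.3 and 43.5 in the mutant group, a difference of 1.87 (SE 0.40) that did not pass (adjusted p = 0.12). Ccdc171, named after its values were seen, lies 24.48 Mb before Echdc2 and was at -1.17 (SE 0.26, adjusted p = 0.149). Gm26566, also named after its values were seen, lies 19.45 Mb before Echdc2, as Klhl9 does. It was at -1.20 and not called by the main edgeR fit (SE 0.33, adjusted p = 0.647). DESeq2 called Ccdc171 and Gm26566 (adjusted p of 0.0078 and 0.0373).

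**Figure D3:**
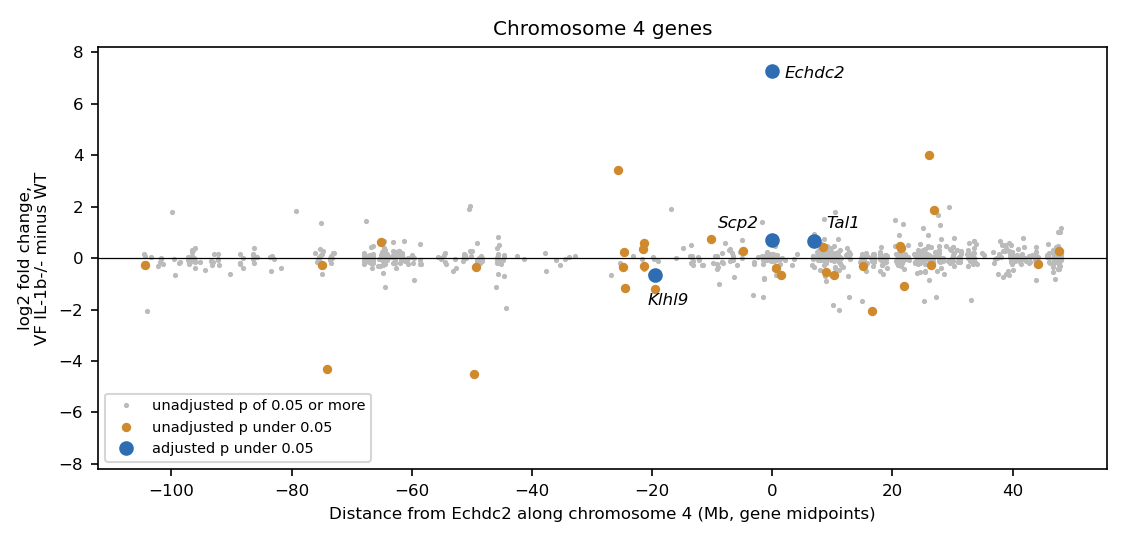
Log2 fold change (VF;IL-1b-/- minus WT) of the chromosome 4 genes tested, by distance in Mb from Echdc2 between gene midpoints. Blue points are the 4 called genes, orange points have an unadjusted p under 0.05, and the genes between the called ones scatter around 0.

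The upstream sequences of the called genes were searched for a STAT5-type motif (TTCNNNGAA) and an NF-kB motif of 10 letters on both strands, since these factors act below JAK2 and the interleukin-1 receptor. None of the 6 genes holds either in the 250 bases before its start in the RefSeq promoters of GRCm38.p6, which says only that these letters are not in this window. Over all 27025 promoters, 7.18% hold the STAT5-type motif and 0.337% the NF-kB motif. The windows of the gene with the largest called rise and of Tal1, for which the Cre is named, are shown 5′ to 3′, at chr4:108165187-108165436 and chr4:115056176-115056425 on the plus strand. Whether the Tal1 window is part of the sequence that drives the Cre was not tested.
Echdc2: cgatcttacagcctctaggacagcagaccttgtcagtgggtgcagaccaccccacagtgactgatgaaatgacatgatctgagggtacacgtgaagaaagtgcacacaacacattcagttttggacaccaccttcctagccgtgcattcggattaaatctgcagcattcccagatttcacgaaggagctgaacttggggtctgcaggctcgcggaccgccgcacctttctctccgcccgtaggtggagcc
Tal1: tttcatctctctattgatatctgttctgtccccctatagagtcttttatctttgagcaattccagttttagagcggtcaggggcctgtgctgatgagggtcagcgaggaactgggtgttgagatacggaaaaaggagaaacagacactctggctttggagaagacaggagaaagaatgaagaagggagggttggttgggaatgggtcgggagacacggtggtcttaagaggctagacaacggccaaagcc

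Dock2, a guanine nucleotide exchange factor that activates Rac for the migration of lymphocytes, fell by 1.02 on the log2 scale (SE 0.17, adjusted p = 0.0137). It had 168, 244, 394 and 327 CPM in WT and 138, 153, 118 and 152 in VF;IL-1b-/-. The groups did not overlap, but WT replicate 1 lay close to the mutant range and WT replicates 3 and 4 well above it. With WT replicates 1 and 2 alone as the controls the difference was -0.56 (adjusted p = 0.951), and without WT replicate 3 or 4 the adjusted p was 0.085 and 0.0663. Without mutant replicate 1, 2 or 3 it was 0.092, 0.0761 and 0.124. VF had 242, 226, 283 and 211 CPM, above every mutant library without Il1b, a difference of -0.78 (SE 0.17) that did not pass (adjusted p = 0.305). VF;IL-1R1-/- had 308, 334, 360 and 373, and the difference between the mutant groups without Il1b and without Il1r1 was called at -1.30 (SE 0.17, adjusted p = 0.00204, 1 of 5 such calls, or 0.0367% of genes).

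Mid1, an X-linked gene for a ubiquitin ligase bound to microtubules, fell by 5.32 (SE 0.91, adjusted p = 0.0137). Its level was 25.7, 29.7, 1.53 and 4.07 CPM in WT and 0.366, 0.198, 0.413 and 0.533 in VF;IL-1b-/-. WT replicates 1 and 2 were high and replicates 3 and 4 much lower, the same division of the WT libraries as for pEGFP. Against WT replicates 3 and 4 alone the difference was -2.88 and not called (adjusted p = 1). Leaving out WT replicate 1 or 2 or any mutant library moved the adjusted p to between 0.0547 and 0.133. VF had 26.6, 19.9, 24.8 and 13.6 CPM, and Mid1 was the only gene called between VF;IL-1b-/- and VF (1 of 13630, 0.00734%), at -5.80 (SE 0.93, adjusted p = 0.0318). VF;IL-1R1-/- was also low, at 0.392 to 0.959 CPM.

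Other genes divided the WT libraries as Mid1 and pEGFP did. Gm21748, annotated on the Y chromosome, had 3.67, 4.05, 0.182 and 0.44 CPM in WT and a single mutant library above 0, at 0.033, a difference of -7.33 (SE 1.49) that was not called (adjusted p = 0.104). Wdfy1, chosen after its values were seen, ran the other way in WT, with 29.6, 78.9, 179 and 146 CPM against 144 to 158 in VF;IL-1b-/-. The 4 Y-linked genes listed summed to 120 CPM in WT replicate 3 and 317 to 470 in the other WT libraries, against 278 to 420 in the mutant group. The part of these differences among WT libraries in the calls for Dock2 and Mid1 was not tested beyond the values with and without those libraries.

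The VF and VF;IL-1R1-/- groups are compared with the same 4 WT libraries, so their differences are given only as values. Against WT, Echdc2 stood at 6.45 in VF and 7.30 in VF;IL-1R1-/-, Scp2 at 0.38 and 0.69, and Tal1 at 0.38 and 0.64. Klhl9 stood at -0.44 and -0.93, Mid1 at 0.48 and -4.58, and Dock2 at -0.23 and 0.28. Over all genes, VF against WT gave 1 call (0.00734%) and VF;IL-1R1-/- against WT gave 8 (0.0587%). Between the mutant groups without Il1b and without Il1r1, Echdc2 differed by -0.05 (SE 0.19), Scp2 by 0.003 (SE 0.11) and Tal1 by 0.04 (SE 0.11), none of them called.

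Several genes with the lowest p fell short of the threshold. Among higher genes these were Runx3, Kcna3, Fgf3, Fbxo27 and Igfbp4. Kcna3, a potassium channel gene, had 12.4, 12.1, 12 and 15.5 CPM in WT and 29.6, 22.8, 33.4 and 30.3 in the mutant group, a difference of 1.16 (SE 0.28, adjusted p = 0.344). Fgf3, a growth factor gene, had 0.618 to 5.42 CPM in WT and 6.15 to 17.1 in VF;IL-1b-/- (2.23, SE 0.57, adjusted p = 0.491). Fbxo27, an F-box gene, had 0 reads in WT and 203 in the mutant group, at least 65.7-fold higher counting WT as the 3 reads that a group total of 0 allows (adjusted p = 0.491). Igfbp4, which encodes a binding protein of insulin-like growth factors, was at 195, 189, 183 and 174 CPM against 266, 261, 211 and 223 (0.37, SE 0.10, adjusted p = 0.53). In each of these 5 genes every mutant library lay above every WT library. DESeq2 called Runx3, Kcna3, Fgf3 and Fbxo27 (adjusted p of 0.00186 to 0.0362), and the fit of the 16 libraries of 2 weeks called Kcna3.

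Among lower genes, Gm14325, Tmem254c, Gm21748, Tmem254b and Gm3435 came next after the called ones, with adjusted p of 0.0647 to 0.12 by edgeR. DESeq2 called all 5 (adjusted p of 8.9e-05 to 0.00443). Gm14325 was also called by limma voom, in the fit of the 16 libraries of 2 weeks and without VF;IL-1b-/- replicate 5 of 4 weeks. Gm14325 had 12.2, 13.5, 14.9 and 13.2 CPM in WT and 4.32, 6.43, 4.76 and 6.86 in the mutant group (-1.27, SE 0.25). Gm3435 had 32.4 to 43.4 CPM in WT and 22 to 26.7 in VF;IL-1b-/- (-0.72, SE 0.15). Tmem254b and Tmem254c are copies of 1 gene, and the others belong to families of like sequence, so reads may have been divided among them and these values are uncertain.

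No direct target of the JAK2 pathway passed edgeR's test. Socs2, a STAT5 target that feeds back on cytokine receptors, had 181, 97.7, 100 and 119 CPM in WT and 186, 296, 134 and 191 in VF;IL-1b-/-. WT replicate 1 lay inside the mutant range, and the difference of 0.69 (SE 0.24) did not pass (unadjusted p = 0.00897, adjusted p = 1). Cish, another feedback gene, had 56.8 to 147 CPM in WT and 73.2 to 134 in the mutant group (0.24, SE 0.33, adjusted p = 1). Pim1, a kinase gene induced by STAT5, was at 121 to 242 against 124 to 206 CPM (-0.22, SE 0.24, adjusted p = 1), and mouse Jak2 itself at 77 to 145 against 89 to 140 (-0.14, SE 0.17, adjusted p = 1). Ccnd2, the cyclin D2 gene and also a STAT5 target, had 659, 965, 1071 and 850 CPM in WT and 621, 715, 555 and 551 in VF;IL-1b-/-, with 1 mutant library above the lowest WT library (-0.54, SE 0.13, unadjusted p = 5.68e-04, adjusted p = 0.484). DESeq2 called Ccnd2 at an adjusted p of 0.0373. Of 28 tested genes in the list of JAK-STAT targets, 14 were higher and 14 lower, none was called by edgeR and 1 by DESeq2, and the median was 0.001, against 0.004 over all genes tested (50.9% of them higher).

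The STAT5-type motif is in 5 of the 23 JAK-STAT list members with a promoter in the reference (21.7%, against 7.18% of all promoters). It is also in 4 of 25 NF-kB and TNF targets (16%), so the higher share is not particular to the JAK-STAT list. The JAK-STAT list matches are shown with 10 bases on each side, the motif in capitals, at chr11:117969502-117969530, chr16:23988952-23988980, chr2:28622097-28622125, chr11:53769914-53769942, chr3:96294060-96294088 on the strand of the gene.
Socs3: gaaaccagccTTCTTAGAAgggagggggg
Bcl6: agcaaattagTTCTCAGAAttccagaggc
Gfi1b: ggttagaagcTTCTGTGAAgttttgataa
Irf1: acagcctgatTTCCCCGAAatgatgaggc
Fcgr1: aaggatgtatTTCCCAGAAaagggaacag
None of the members tested that hold the motif was called. Socs3, a feedback inhibitor, differed by -0.06 (SE 0.55), Bcl6, a transcriptional repressor, by -0.66 (SE 0.90), Gfi1b, a repressor of the erythroid and megakaryocytic lines, by -0.07 (SE 0.19) and Irf1, a factor of the interferon response, by 0.01 (SE 0.27). Each had an adjusted p of 1, and Fcgr1 was not among the genes tested.

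No gene of the interleukin-1 pathway was called. Of 25 tested members 11 were higher and 14 lower, with a median of -0.04 and no call by edgeR or DESeq2. Myd88, the receptor's adaptor and named after its values were seen, was at 78.4 to 118 CPM in WT and 85.5 to 100 in VF;IL-1b-/- (0.003, SE 0.13), and Irak1, a kinase it recruits, at 233 to 291 against 254 to 276 (-0.001, SE 0.11). Peli2, a ubiquitin ligase of the pathway, had 26.1, 21.5, 20.3 and 16.3 CPM in WT and 9.22, 16.2, 9.27 and 9.02 in the mutant group, the only member whose groups did not overlap, where 2.27% of all genes lay entirely below WT (-0.95, SE 0.33, unadjusted p = 0.00828, adjusted p = 1). Of 31 NF-kB and TNF targets 14 were higher and 17 lower (median -0.03, and 0.04 without mutant replicate 1, none called), and no member separated the groups. Nfkbia, the inhibitor induced by NF-kB, had 105 to 162 CPM in WT and 159 to 180 in VF;IL-1b-/- (0.26, SE 0.19, adjusted p = 1). Type I interferon genes numbered 30 higher and 16 lower (median 0.03, but -0.04 without WT replicate 4), and interferon gamma genes 18 higher and 17 lower (median 0.01, but -0.07 without WT replicate 4), with no call in either list.

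No gene near Il1b on chromosome 2 was called, with 0 of 93 genes tested within 5 Mb, 0 of 170 within 10 Mb and 0 of 252 within 20 Mb, by the same edgeR test. At an unadjusted p under 0.05 these windows held 5, 8 and 12 genes (5.38%, 4.71% and 4.76%, against 3.1% of all genes). The lowest p was that of Slc24a5, 4.29 Mb from Il1b and named after its values were seen, with 115, 119, 132 and 103 CPM in WT and 71, 95, 65.3 and 62.1 in the mutant group (-0.68, SE 0.18, adjusted p = 0.531). Its groups did not overlap.

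Cytosolic ribosomal protein genes, which encode the proteins of the cell's own ribosomes, were lower as a group by a small amount. All 79 had lower fitted levels in VF;IL-1b-/- (49.1% of all genes did), by 0.003 to 0.43 on the log2 scale with a median of -0.18. No single member passed the adjusted test, 21 had an unadjusted p under 0.05 (1.72% of all genes in that direction), and for 31, or 39.2%, every mutant library lay below every WT library (2.27% of all genes). Their summed CPM was 15810, 17050, 15520 and 17360 in WT and 15120, 14890, 14430 and 13450 in the mutant group, so the sums did not overlap but the nearest libraries lay close together. The small subunit had a median of -0.20 over 31 genes and the large subunit -0.18 over 46. Rpl37a had 190, 200, 188 and 190 CPM in WT and 154, 161, 151 and 133 in VF;IL-1b-/- (-0.36, SE 0.11, unadjusted p = 0.00318, adjusted p = 0.884). Rps21 had 55.7, 61.9, 59.9 and 63.6 against 52.1, 47.7, 44.5 and 39 CPM (-0.40, SE 0.13, adjusted p = 1). The abundant Rpl4 overlapped between the groups, with 1348 to 1633 CPM in WT and 1247 to 1415 in the mutant group (-0.11, SE 0.09, adjusted p = 1).

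The ribosomal list was also lower against VF, where all 79 members were lower in VF;IL-1b-/- with a median of -0.13, and no member was called. VF itself had a median of -0.05 against WT, with 63 of 79 lower, and VF;IL-1R1-/- a median of -0.13 against the same WT libraries, with 66 of 79 lower. Other sets of genes were compared with WT and VF in the same way. The 214 with a longest coding transcript of 600 to 1000 bases and a mean of at least 50 CPM had a median of 0.01, with 104 lower, and 3.74% of them lay entirely below WT. Against VF 166 of the 214 were lower, with a median of -0.06. The 47 under 600 bases had a median of -0.02 against WT, with 28 lower and 8.51% entirely below WT, and of -0.09 against VF, with 36 lower. The 78 genes of the mitochondrial ribosome, which lie in the nuclear genome, had a median of 0.03 against WT, with 30 lower, and of -0.04 against VF, with 55 lower. Each of these 3 sets had a median below 0 against VF. In VF and VF;IL-1R1-/- against WT their medians were above 0. They were 0.07 and 0.08 for the 214, with 54 and 51 lower, 0.07 and 0.07 for the 47, and 0.06 and 0.09 for the 78. These comparison sets were chosen after the ribosomal values were seen. Leaving out 1 library at a time kept 73 to 79 members lower with medians of -0.21 to -0.15. Without mutant replicate 4, the lowest library, members at an unadjusted p under 0.05 fell to 8, and without WT replicate 2 to 11. Many ribosomal protein genes have processed copies elsewhere in the genome, so each single value is uncertain.

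**Figure D4:**
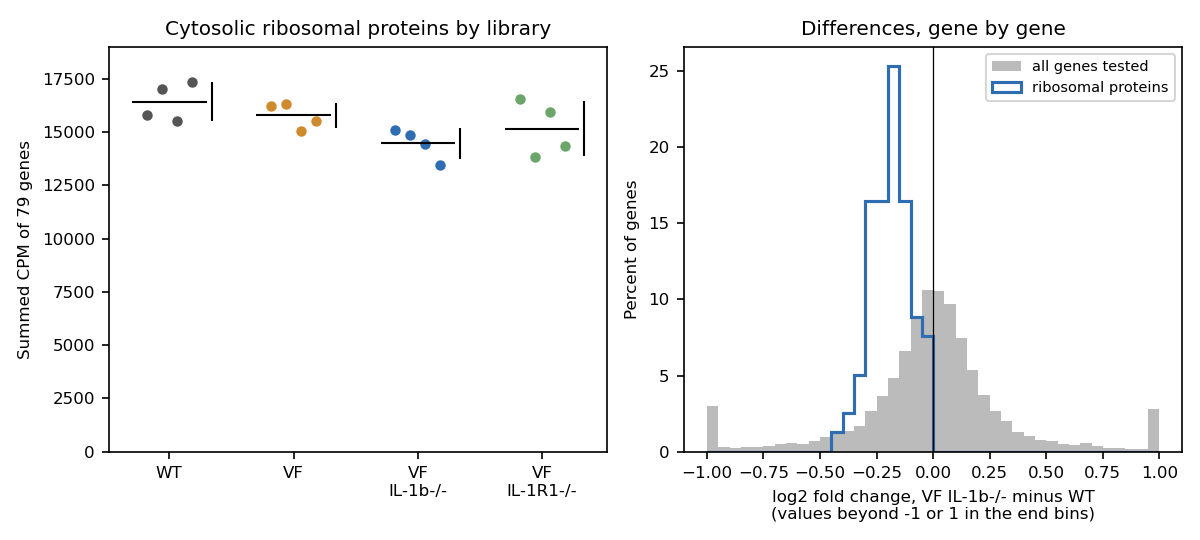
Left, summed CPM of the 79 cytosolic ribosomal protein genes in each library of 2 weeks, with group means (horizontal lines) and SD (vertical lines). Right, the distribution of log2 fold change (VF;IL-1b-/- minus WT) of these genes and of all genes tested, as percent of genes; the 79 lie below 0, with a median of -0.18.

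Transcripts of the mitochondrial genome were lower in 12 of 12 members (median -0.23), but 0 passed the edgeR test, adjusted or at an unadjusted p under 0.05, and 2 of the 12 lay entirely below WT (2.27% of all genes did). Their summed CPM was 7108, 7588, 7635 and 5505 in WT and 6405, 5516, 6028 and 5929 in the mutant group, with WT replicate 4 below every mutant library. Nuclear genes of oxidative phosphorylation went the other way by a small amount, with 53 of 75 higher and a median of 0.05, but the median was -0.01 without mutant replicate 1. Cholesterol synthesis genes were lower in 21 of 28 (median -0.11, none called by edgeR or DESeq2). Of these, Msmo1, a sterol oxidase gene, had 152, 131, 191 and 132 CPM in WT and 113, 94.6, 109 and 81.2 in VF;IL-1b-/- (-0.61, SE 0.22, adjusted p = 1).

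Cell cycle genes were higher in count but the difference rested on 1 WT library. Of 52 S phase genes 45 were higher (median 0.19, 0 called) and of 61 genes of G2 and mitosis 49 (median 0.11, 0 called). The S phase genes summed to 3376 CPM in WT replicate 1 and 5527 to 6131 in the other WT libraries, against 4761 to 6903 in the mutant group. Without WT replicate 1 the medians were 0.03 and -0.05. Mcm2, a subunit of the replicative helicase, had 105, 257, 220 and 210 CPM in WT and 346, 228, 339 and 243 in VF;IL-1b-/- (0.55, SE 0.22, adjusted p = 1).

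Genes of stem cells and their lines gave 1 call by edgeR, Tal1. Of 47 stem cell genes 14 were higher and 33 lower (median -0.09, and -0.01 without WT replicate 1). Of 35 megakaryocyte and platelet genes 20 were higher and 14 lower (median 0.05). Gata1, the master factor of the erythroid and megakaryocytic lines, had 18.7, 27.4, 14.5 and 27.6 CPM in WT and 80.2, 30.6, 80.8 and 37.6 in VF;IL-1b-/-. Every mutant library was above WT, with mutant replicates 1 and 3 far higher than 2 and 4 (1.38, SE 0.37, unadjusted p = 0.00101, adjusted p = 0.56), and DESeq2 called Gata1 at an adjusted p of 0.0467. Itga2b, the platelet integrin CD41, was also highest in mutant replicates 1 and 3, at 247 and 227 CPM against 48.9 to 133 in WT (0.99, SE 0.39, adjusted p = 1). Mutant replicates 2 and 4 were lower. Gata1 was the only 1 of the 35 megakaryocyte and platelet genes above WT in every mutant library (1.67% of all genes were). Below WT in every mutant library were 3 of the 35 (2.27% of all genes were). Nfe2, a factor of platelet formation and 1 of these 3, was at 718, 643, 776 and 754 against 500, 632, 587 and 609 CPM (-0.31, SE 0.09, unadjusted p = 0.00211, adjusted p = 0.762).

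The myeloid lists leaned higher without calls. Neutrophil and monocyte genes were higher in 22 of 36 (median 0.28, but 0.09 without mutant replicate 4 and 0.42 without WT replicate 1), and no member separated the groups. Their summed CPM was 1162 to 1348 in VF;IL-1b-/-, within the WT range of 1111 to 1594. The median of this list against WT was 0.60 in VF and 0.54 in VF;IL-1R1-/-, and VF;IL-1b-/- against VF gave -0.39. Mast cell and basophil genes were higher in 10 of 16 (median 0.40, and 0.04 without mutant replicate 3), and 4 of them, Cpa3, Fcer1a, Hdc and Alox5, lay above WT in every mutant library (1.67% of all genes did). Their levels were low. Cpa3, a mast cell protease gene, had 0.946, 3.77, 3.54 and 1.72 CPM in WT and 3.88, 5.96, 5.7 and 5.46 in VF;IL-1b-/- (1.07, SE 0.62, adjusted p = 1), and Fcer1a, the IgE receptor chain, had 0 to 0.769 against 0.832 to 8.1 (3.22, SE 1.09, adjusted p = 1). Plac8, a gene of myeloid progenitors named after its values were seen, had 10.7, 41.7, 16.8 and 26.6 CPM in WT and 114, 85.7, 82.5 and 59.8 in VF;IL-1b-/- (1.84, SE 0.50, adjusted p = 0.602). Its groups did not overlap.

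**Figure D5:**
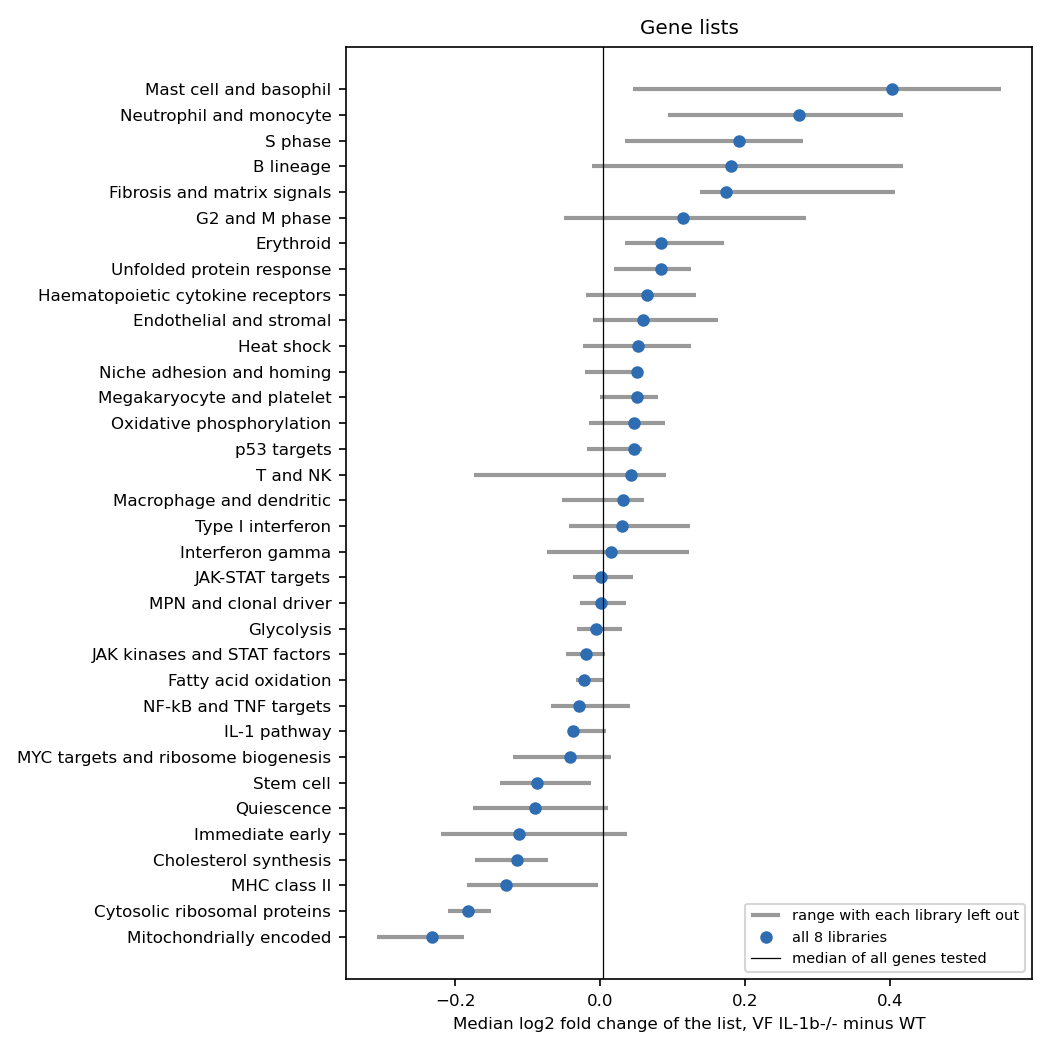
Median log2 fold change (VF;IL-1b-/- minus WT) of each gene list (points, all 8 libraries), with the range when each of the 8 libraries is left out in turn (grey lines) and the median of all genes tested (vertical line). The lists of cytosolic ribosomal, mitochondrially encoded, cholesterol synthesis, stem cell and MHC class II genes stay below 0 over the whole range, the ribosomal one at -0.21 to -0.15; the S phase list reaches 0.03.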

How the data were processed

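Libraries were made from polyA RNA with SMART-Seq v4, unstranded, per the labels' protocols. The unit is the raw count per gene as deposited by the authors. Reads were mapped to mm10, and the tools listed are STAR 2.7.10a, featureCounts (settings not given in the sources used here), FastQC 0.11.5 and R 4.2.2, per the submitters' processing notes. The table holds 13641 genes and 4 construct sequences. The constructs stayed out of the gene tests.

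All 25 libraries, in 7 groups of genotype and time, entered a single robust quasi-likelihood fit of edgeR 4.0.16 (run in R 4.3.3) after TMM scaling and edgeR's own filter on low counts. The 13630 genes left were adjusted together by the Benjamini-Hochberg method, with a threshold of 0.05. Because the libraries are unstranded, reads of a gene and of an antisense partner cannot be told apart. Positions came from GENCODE vM21. CPM values are edgeR's, over TMM-scaled library sizes, and are not divided by length, so they are compared within a gene. Constructs were compared by exact permutation. The 36 gene lists, described by counts and medians without a test, and the members were chosen with earlier results of these data known.

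Named genes were Il1b, Il1r1, Jak2, Socs2, Cish, Pim1, Echdc2, Mid1 and Dock2, then up to 12 called genes per direction (or those of lowest p up to 8), then members of each list by lowest p and highest level. Others hold a motif, complete a small count or are said to be named after their values were seen. Alternatives were other scaling factors, filters, libraries in the fit, a replicate block, DESeq2 1.42.0, limma 3.58.1 voom and leaving out each library. The edgeR test was tested on simulated data. Those data had less spread between libraries than the real ones and no split among the WT libraries, so they do not show how the test performs here. Depth was 26398242 to 29835071 counts per library, and the floor of 3 reads covers counting error only.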

Additional observations from a re-analysis of the deposited data

Results flagged for a closer look

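Among 52 groups of 4 libraries, 6 held a library whose gap to its nearest neighbour was above Dixon's critical share of the group's range. Chance flags about 1 group in 20 where values are normally spread. That rate does not hold where all libraries of a group but 1 are at 0, since the rule always flags such a group. This is so for Il1b in WT, Gm21748 in the mutant group and CreERT2 in WT. Il1b had 0.139 CPM in WT replicate 2 and 0 in the other WT libraries. Il1r1 was lowest in WT replicate 3, at 6.09 CPM, against 16.5 to 20 in the others. Kcna3 was highest in WT replicate 4, at 15.5 CPM, against 12 to 12.4. Gm21748 had 0.033 CPM in VF;IL-1b-/- replicate 2 and 0 in the other mutant libraries. CreERT2 stood at 568 CPM in VF;IL-1b-/- replicate 2, against 527 to 532 in the others, and at 0.0365 CPM, a single read, in WT replicate 3.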

How the results depend on the processing

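Echdc2 was called in each of the 20 alternative fits, Scp2 in 17, Klhl9 and Dock2 in 12, Tal1 in 11 and Mid1 in 10. The directions of these 6 did not change in any of them. RLE and upper-quartile factors, no filter on low counts and a filter of 5 CPM in 3 libraries each gave 3 higher and 3 lower genes, all shared with the 6. Fitting the 16 libraries of 2 weeks alone gave 5 higher and 7 lower genes, 12 in all, and limma voom gave 3 higher and 6 lower. DESeq2 called 10 higher and 14 lower genes, 24 in all, including the 6. Leaving out 1 of the 8 libraries gave 1 to 3 higher genes, 0 to 4 lower and 1 to 6 in all. With WT replicates 3 and 4 alone there were 1 higher and 1 lower, 2 in all. The fit with the replicate number as a block called 3 genes, 3 higher and 0 lower (Echdc2, Scp2 and Tal1), with 404 genes at an unadjusted p under 0.05. The numbers did not pair the libraries, since same-numbered deviations correlated at -0.04, -0.05, 0.02 and -0.05 and 1 of 4 WT libraries matched its own number best. Signs changed for genes that were not called. Il1b was at 0 without WT replicate 2 and with WT replicates 3 and 4 alone. Il1r1 was at -0.15 without WT replicate 3, -0.08 without mutant replicate 4 and -0.21 with WT replicates 1 and 2 alone. With 1 of the 8 libraries left out, Il1b ran from -3.54 to 0 and Il1r1 from -0.15 to 0.28. Cish was at -0.067 with WT replicates 3 and 4 alone. For these changes the cause was not tested. For genes under about 1 CPM the number of reads limits what could be detected.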
